A study of Mus musculus with 12 samples.

Results

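Low-passage pancreatic tumor cells of the mouse were compared with cultures in acinar-to-ductal metaplasia (ADM), the state in which the enzyme-secreting acinar cells of the pancreas take on a duct-like form. The arrays were chosen by their titles alone: 3 of tumor cells and 3 of ADM culture, 6 of the 12 arrays of the study, with 22180 genes compared between them. Tumor cells had grown in standard medium. ADM cultures were acinar cells held in collagen for 7 days, with TGF-alpha at 50 ng/ml, which activates the EGF receptor. Both groups are labelled C57Bl6/J wildtype by strain, and the labels name no driver mutation, transgene, age or sex. All 3 tumor arrays carry the same code, and the labels do not say whether they came from 1 cell line, or which replicates had their own animal or culture. The p-values thus cover only the spread between arrays of a group, pooled over all 12 arrays of the study, which may be technical. Cell kind, matrix, medium, growth factor, time in culture and the sex read from marker genes all differ between tumor cells and ADM culture. These cannot be told apart. The study's title concerns epigenetic change in acinar cell reprogramming and pancreatic carcinogenesis.

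Adult acinar cells hold an enzyme program driven by the transcription factors Ptf1a, Nr5a2 and Bhlha15. In ADM this program falls and duct keratins appear, and lesions that precede cancer can arise from such cells. Pancreatic carcinoma cells range from epithelial, joined by claudins, desmosomes and E-cadherin, to mesenchymal, marked by vimentin and by Twist, Snail and Zeb factors, and many of them have lost the cell cycle inhibitors of the Cdkn2a locus. Polycomb repressive complexes keep developmental genes silent through histone marks set by Ezh2 and by Rnf2 with its partners.

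Values are log2 signal, on which a difference of 1 means a doubling of the signal. The ± after a log2 difference is its standard error (SE) from limma with n = 3 arrays per group, and adjusted p is by Benjamini-Hochberg over all genes. A gene was called at an adjusted p under 0.05 and a log2 difference of at least 1 in size. Signal of 3.62 or less was taken as background, the level of odorant and vomeronasal receptor genes, and where a group averaged at or under it, "at least" so many fold gives the bound from that level, while a log2 difference is as measured. By the rule for calls 727 genes were called higher in tumor cells (3.28%) and 1125 lower (5.07%), 1852 in all (8.35%), and the median log2 difference of all genes was 0.06. These shares count 9124 genes at or under background in both groups. Among 13044 genes above background in at least 1 group and with a known chromosome, 5.566% were called higher and 8.609% lower. Lists of mostly expressed genes are better read beside the latter shares. Large differences ran mostly one way: of the genes called, 137 were higher by 4-fold or more and 468 lower, and by 16-fold or more 10 were higher and 105 lower. Of the genes called lower, 374 lay at or under background in tumor cells, while 77 of those called higher did so in ADM culture. All 3 tumor arrays lay above all 3 ADM arrays in 17.7% of all genes and below them in 13.9%.

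**Figure D1:**
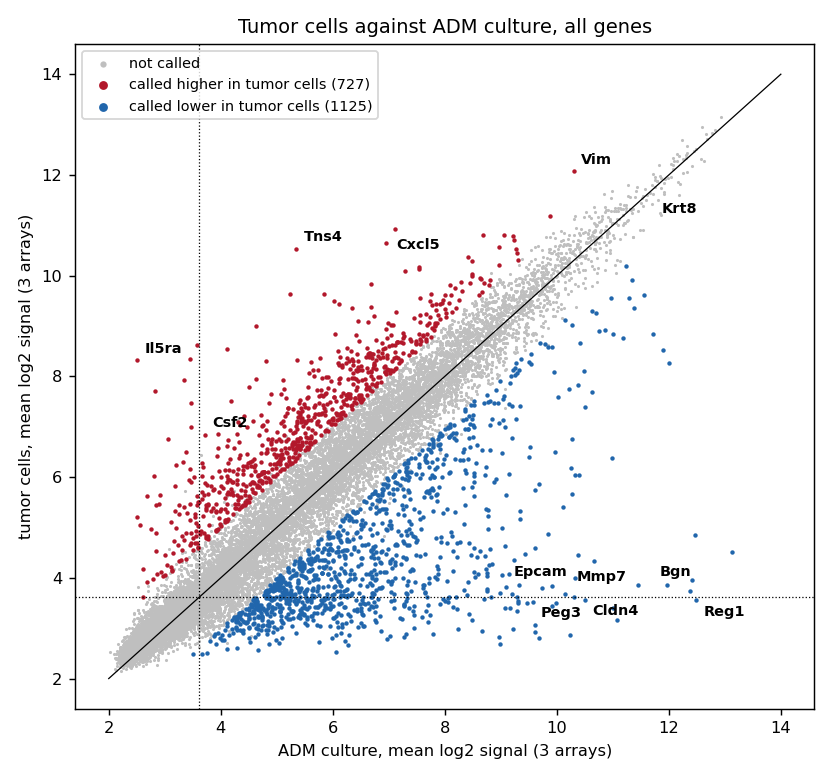
Mean log2 signal of each of the 22180 genes in tumor cells (vertical axis, 3 arrays) against ADM culture (horizontal axis, 3 arrays); red points are the 727 genes called higher in tumor cells, blue points the 1125 called lower, grey points the rest, the diagonal marks equal signal and dotted lines the background level of 3.62. Blue points such as Reg1, Cldn4 and Peg3 lie along the dotted background line of tumor cells, while Krt8 lies on the diagonal.

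The arrays correlated across genes at 0.968 to 0.987 within tumor cells, at 0.988 to 0.991 within ADM culture and at 0.919 to 0.938 between them. Among tumor arrays replicate 1 stood apart, at 0.968 and 0.969 with the others, against 0.987 between replicates 2 and 3. It lay at least 1 above both other tumor arrays in 408 genes and at least 1 below both in 355, out of 13056 genes above background in at least 1 group. Where leaving it out changed the call of a gene described with its values, or moved a called difference by over 1.5-fold, the value without it is given too. Without it, 1035 genes were called higher and 1311 lower, and 675 and 1077 of these were among the calls made with it. Female and male marker genes divided the groups: Xist, which silences an X chromosome in females, had 4.28, 3.04 and 4.22 in tumor cells, against 9.86, 9.88 and 10.02 in ADM culture, and the Y-linked Eif2s3y had 7.07, 7.22 and 6.72 in tumor cells, against 3.52, 3.49 and 3.40 in ADM culture. What part the sex of the source has in any other difference was not tested, and with these markers following the groups it cannot be told apart.

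Several marker lists of neighbouring cell types were brighter in ADM culture. Of 23 markers of fibroblasts and stellate cells, 19 were called lower in tumor cells and 0 higher, with 11 above background in tumor cells and 21 in ADM culture. Their summed linear signal was 338 to 366 on tumor arrays, against 6487 to 12770 on ADM arrays. Dcn, the matrix proteoglycan decorin, had 2.98, 3.27 and 3.25 in tumor cells, against 9.15, 7.46 and 8.86 in ADM culture, and Dcn, Lum and Pdgfra were at or under background on every tumor array. The summed endothelial markers stood at 348 to 412 on tumor arrays, against 959.9 to 1101 on ADM arrays, with 7 of 17 called lower and 1 (Flt1) higher. Islet markers summed to 273 to 391 on tumor arrays, against 1174 to 2154 on ADM arrays, with 8 of 19 called lower. Macrophage and dendritic markers summed to 1034 to 1348 on tumor arrays, against 1238 to 1872 on ADM arrays, with 5 of 23 called lower and 2 higher, Cd14 by 1.50 and Mrc1 by 2.49. Lyz2, the lysozyme of macrophages, had 3.19, 3.24 and 4.42 in tumor cells, against 9.72, 9.02 and 9.11 in ADM culture, while Adgre1, which marks mature macrophages, had 3.02, 3.03 and 2.95 in tumor cells and 3.92, 3.44 and 3.43 in ADM culture. The leukocyte-wide marker Ptprc was at background in both groups, at 2.95, 2.87 and 3.05 in tumor cells, against 3.24, 3.28 and 3.10 in ADM culture, and limma called none of 14 lymphocyte markers (0 higher and 0 lower at an unadjusted p under 0.05). In these bulk samples, fewer cells of a type and less RNA per cell cannot be told apart.

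Acinar enzyme genes were mostly near background in tumor cells and still bright in ADM culture. The list holds 26 measured genes of digestive enzymes and of other secreted or granule proteins, such as Spink1 and Sycn. Of these 26, 12 averaged above background in tumor cells and 25 in ADM culture. Members of the list were called lower in 24 of 26 cases and higher in 0, with a median log2 difference of -4.97, beside 0.06 over all genes. Cpa1, carboxypeptidase A1, had 4.36, 3.71 and 3.81 in tumor cells, against 12.70, 12.34 and 12.19 in ADM culture (log2 difference -8.45 ± 0.18, adjusted p = 2e-11). Ctrb1, chymotrypsinogen, had 5.37, 4.30 and 3.89 in tumor cells, against 13.17, 13.08 and 13.11 in ADM culture (-8.60 ± 0.27, adjusted p = 2.03e-10). For both enzymes every tumor array lay far below every ADM array, and tumor replicate 1 was the highest of the tumor arrays. Prss2, a trypsinogen, had 3.11, 3.75 and 3.36 in tumor cells, against 11.34, 10.79 and 10.86 in ADM culture, at least 161-fold lower. Cel, carboxyl ester lipase, had 3.62, 3.71 and 3.18 in tumor cells, against 9.66, 9.10 and 9.18 in ADM culture, at least 50.7-fold lower. The trypsin genes are close copies of each other, and cross-hybridisation between them was not tested. Ctrc and Prss3 were the members not called, Ctrc with 4.19, 3.84 and 3.73 in tumor cells and 4.14, 4.37 and 4.34 in ADM culture.

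ADM arrays differed among themselves in how much of the enzyme program they held. Averaged over the 25 members of the enzyme list above background in at least 1 group, log2 signal was 3.88, 3.69 and 3.72 on tumor arrays 1 to 3. On ADM arrays 1 to 3 it was 9.42, 8.55 and 7.96. Klk1, a kallikrein of acinar granules, had 2.38, 2.88 and 3.19 in tumor cells and 10.82, 8.97 and 7.10 in ADM culture, the widest ADM spread among the enzymes named here. Every ADM array was above every tumor array all the same.

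Of the transcription factors that hold the acinar state, 4 of 9 were called lower and 0 higher. Nr5a2, a nuclear receptor that activates digestive enzyme genes, had 3.84, 3.11 and 3.89 in tumor cells, against 8.11, 8.08 and 8.02 in ADM culture, at least 19.5-fold lower (-4.46 ± 0.23, adjusted p = 2.92e-08). Ptf1a, which with Rbpjl drives the same genes, had 3.68, 3.41 and 3.70 in tumor cells, against 6.78, 5.75 and 5.21 in ADM culture, at least 4.75-fold lower (-2.32 ± 0.36, adjusted p = 0.000632). The ADM arrays were tight for Nr5a2 and spread over more than 1.5 for Ptf1a. Bhlha15 (Mist1) was not called, at 4.0, 4.44 and 3.95 in tumor cells and 4.28, 3.94 and 4.25 in ADM culture (-0.03 ± 0.19, adjusted p = 0.964), with the groups overlapping. Xbp1, the factor that expands the secretory apparatus, fell by 1.90 on the log2 scale, while of 33 genes for folding and secretion in the endoplasmic reticulum 1 was called lower (Sel1l) and 0 higher. Sel1l lost its call without tumor replicate 2 (-0.92) or ADM replicate 1 (-0.96), and 3 of the list were lower without tumor replicate 1.

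The regenerating (Reg) genes, secreted lectins that acinar cells make after injury, held the largest difference of any gene, that of Reg1. It had 3.95, 2.96 and 3.79 in tumor cells, against 12.55, 12.36 and 12.55 in ADM culture, at least 416-fold lower (-8.92 ± 0.26, adjusted p = 1.14e-10). Reg3b had 3.97, 3.55 and 3.67 in tumor cells, against 12.49, 12.21 and 12.41 in ADM culture (-8.64 ± 0.87, adjusted p = 1.27e-05). Their ADM signal was as even from array to array as it was high. The wide SE of Reg3b comes from pooling with the embryonic acinar arrays, which had an SD of 2.67 for it. All 6 measured members of the cluster, which lie next to each other on chromosome 6, were called lower, with Reg2 at least 176-fold, Reg3a at least 63.2-fold, Reg3g at least 18-fold and Reg3d at least 6.24-fold lower. They are close copies, and how far their probes read each other was not tested.

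Keratins of simple ducts were bright and at similar levels in both groups, while the surface protein Epcam and the keratin Krt20 were far lower in tumor cells. Krt8 had 11.59, 11.55 and 11.69 in tumor cells, against 11.54, 11.76 and 11.54 in ADM culture (0.00 ± 0.15, adjusted p = 0.994). Its partner Krt18 differed by 0.12 ± 0.17 (adjusted p = 0.762) and the duct keratin Krt19 by 0.25 ± 0.15 (adjusted p = 0.341), neither of which passed. Krt7 had 10.12, 10.19 and 10.34 in tumor cells, against 9.57, 9.79 and 9.60 in ADM culture (0.56 ± 0.14, adjusted p = 0.016), higher on every tumor array but under the fold needed for a call. Epcam, the adhesion molecule that marks most epithelia, had 3.65, 3.84 and 3.98 in tumor cells, against 8.96, 9.11 and 9.21 in ADM culture (-5.27 ± 0.16, adjusted p = 1.44e-10). Tumor signal for Epcam was thus barely above background on all 3 arrays. Krt20, a keratin of gut and gastric surface cells, had 5.78, 6.52 and 6.82 in tumor cells, against 10.63, 11.41 and 10.90 in ADM culture (-4.61 ± 0.42, adjusted p = 5.06e-06).

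In the list of duct keratins and ductal markers, 10 of 23 were called lower and 1 higher, with a median log2 difference of -0.30. Cftr, the chloride channel of duct cells, was at least 7.76-fold lower in tumor cells. Muc1, a membrane mucin, had 6.34, 8.60 and 8.57 in tumor cells, against 10.33, 10.44 and 10.37 in ADM culture (-2.54 ± 0.44, adjusted p = 0.00126, and -1.79 without tumor replicate 1). Sox9, a transcription factor of ducts and progenitors, had 8.04, 5.54 and 6.07 in tumor cells, against 7.86, 7.65 and 7.71 in ADM culture. Tumor replicate 1 was level with ADM culture for Sox9, and the others lay well below it. The difference did not pass with all arrays (-1.19 ± 0.44, adjusted p = 0.0972) and did without tumor replicate 1 (-1.94, adjusted p = 1.1e-05). Car2, a carbonic anhydrase of duct cells, was the member called higher (1.71 ± 0.43, adjusted p = 0.0159). That call was lost without tumor replicate 2 (adjusted p = 0.0707), tumor replicate 3 (0.0539) or ADM replicate 2 (0.0686).

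**Figure D2:**
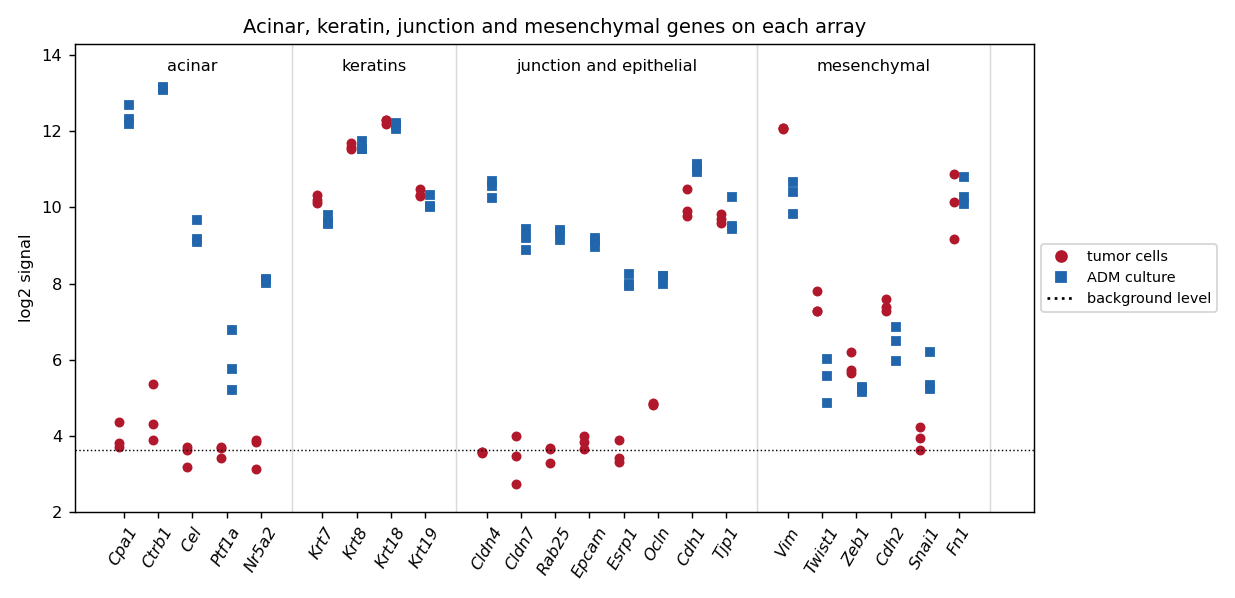
Log2 signal of genes of acinar, ductal, junction and mesenchymal identity on each of the 3 tumor arrays (left, red) and 3 ADM arrays (right, blue) for each gene, tumor arrays as circles, ADM arrays as squares and a dotted line at the background level. Krt8 and Krt19 sit at about the same height in both groups, whereas Cpa1, Nr5a2, Epcam and Cldn4 sit near background in tumor cells and well above it in ADM culture.

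Genes of epithelial junctions and polarity were called lower in 22 of 36 cases and higher in 0, with a median log2 difference of -1.32 (23 lower and 0 higher without tumor replicate 1). Cldn4, a tight junction claudin, had 3.53, 3.56 and 3.57 in tumor cells, against 10.25, 10.56 and 10.69 in ADM culture, at least 118-fold lower (-6.95 ± 0.22, adjusted p = 2.28e-10). Rab25, a small GTPase of epithelial recycling endosomes, had 3.64, 3.29 and 3.68 in tumor cells, against 9.36, 9.41 and 9.14 in ADM culture, at least 50.4-fold lower (-5.77 ± 0.17, adjusted p = 1.14e-10). Both groups were tight and far apart for these genes. Spint1, an inhibitor of epithelial surface proteases, had 3.47, 3.71 and 3.85 in tumor cells, against 9.15, 9.28 and 9.15 in ADM culture (-5.52 ± 0.16, adjusted p = 1.14e-10). Its target protease St14 (matriptase) had 3.95, 4.35 and 3.95 in tumor cells, against 9.03, 9.24 and 9.17 in ADM culture (-5.06 ± 0.20, adjusted p = 2.43e-09). Inhibitor and protease were thus both near background in tumor cells.

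The same list holds regulators of epithelial splicing and transcription. Esrp1, which sets epithelial splicing, had 3.88, 3.40 and 3.30 in tumor cells, against 7.94, 8.24 and 8.0 in ADM culture, at least 20.4-fold lower. Grhl2, a grainyhead factor that activates junction genes, had 3.46, 3.74 and 3.88 in tumor cells, against 6.22, 6.51 and 6.28 in ADM culture (-2.64 ± 0.21, adjusted p = 1.14e-06). Esrp2, a relative of Esrp1, was called at the fold limit (-1.0 ± 0.19, adjusted p = 0.00294), but not without tumor replicate 3 (-0.90), ADM replicate 2 (-0.85) or ADM replicate 3 (-0.99). The zinc finger factor Ovol1 was called lower, at least 1.61-fold (-1.19 ± 0.25, adjusted p = 0.0051), while Ovol2 differed by -0.23 ± 0.17 and Grhl3 by -0.10 ± 0.19, neither called, and Grhl1 was at background on every array. Ap1m2, the epithelial subunit of a clathrin adaptor, was at least 16.9-fold lower, and the tight junction protein Ocln fell by 3.30 on the log2 scale. Cdh1, E-cadherin itself, stayed bright, with 10.48, 9.78 and 9.92 in tumor cells, against 10.93, 11.15 and 11.07 in ADM culture (-0.99 ± 0.18, adjusted p = 0.00189). It lay below ADM culture on every tumor array, just under the fold for a call, and passed it without tumor replicate 1 (-1.20) or ADM replicate 1 (-1.05). The junction scaffold Tjp1 did not pass (-0.03 ± 0.22, adjusted p = 0.97).

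Promoters of lowered members of the junction and polarity list are shown with the E-box and the grainyhead motif marked. That list also holds regulators, surface proteases and trafficking genes, and of the 4 shown Cldn4 alone is a junction gene. Zinc finger repressors of the Zeb and Snail families can bind the E-box, and Grhl2 the grainyhead motif. Binding at these promoters was not tested. The sequences are the 250 bases before the start of the gene, read 5′ to 3′ along the gene's strand, from RefSeq's table of the GRCm38.p6 build. Capitals mark the E-box CAGGTG or its complement CACCTG, and the grainyhead motif AACNGGTT or its complement AACCNGTT. The 4 genes are those lowered most among list members with exactly 1 start in that table: Cldn4 at chr5:134946935-134947184 on the minus strand, Rab25 at chr3:88548280-88548529 on the minus strand, Spint1 at chr2:119237110-119237359 on the plus strand and Ap1m2 at chr9:21312334-21312583 on the minus strand.
Cldn4: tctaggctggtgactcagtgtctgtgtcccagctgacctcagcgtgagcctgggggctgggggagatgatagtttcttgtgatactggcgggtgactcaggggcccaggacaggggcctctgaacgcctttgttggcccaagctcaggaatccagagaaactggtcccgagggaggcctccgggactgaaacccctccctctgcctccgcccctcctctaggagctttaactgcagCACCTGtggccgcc
Rab25: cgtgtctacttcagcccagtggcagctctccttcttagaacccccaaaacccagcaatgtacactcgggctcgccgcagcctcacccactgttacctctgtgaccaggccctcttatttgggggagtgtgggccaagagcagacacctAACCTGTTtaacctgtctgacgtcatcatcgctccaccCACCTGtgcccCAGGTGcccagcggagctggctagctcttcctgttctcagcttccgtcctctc
Spint1: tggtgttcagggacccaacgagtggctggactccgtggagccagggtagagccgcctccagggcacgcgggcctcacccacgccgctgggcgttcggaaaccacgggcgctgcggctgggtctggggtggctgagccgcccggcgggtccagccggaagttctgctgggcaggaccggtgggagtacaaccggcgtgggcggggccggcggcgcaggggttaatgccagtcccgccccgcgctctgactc
Ap1m2: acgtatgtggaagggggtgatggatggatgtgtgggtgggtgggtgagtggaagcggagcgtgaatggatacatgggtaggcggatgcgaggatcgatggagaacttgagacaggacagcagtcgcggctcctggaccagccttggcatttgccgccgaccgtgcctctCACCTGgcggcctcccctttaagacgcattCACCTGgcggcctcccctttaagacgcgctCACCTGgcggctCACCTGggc
Ap1m2 held 4 E-boxes, Rab25 held 2 and a grainyhead motif, Cldn4 held 1 E-box and Spint1 held neither motif. Of 12 lowered list members with a promoter in the table, 7 held an E-box (58.3%) and 2 a grainyhead motif. Among list members not called, 5 of 11 held an E-box (45.5%) and 0 a grainyhead motif. Of all 27025 genes with a promoter, 5252 held an E-box (19.4%) and 540 a grainyhead motif. A match describes these letters and does not show that a factor was bound.

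The mesenchymal list held genes called in both directions. Of 28 genes 3 were called higher, Vim, Twist1 and Hmga2, and 13 lower, with a median log2 difference of -0.94. Vim, the intermediate filament vimentin, had 12.08, 12.06 and 12.09 in tumor cells, against 10.42, 9.82 and 10.68 in ADM culture (1.77 ± 0.19, adjusted p = 2.96e-05). Twist1, a transcription factor of mesenchyme, had 7.81, 7.29 and 7.27 in tumor cells, against 6.01, 4.87 and 5.56 in ADM culture (1.98 ± 0.30, adjusted p = 0.000494). Hmga2, a chromatin protein of embryonic and tumor cells, had 9.11, 8.50 and 8.46 in tumor cells, against 7.17, 6.84 and 7.65 in ADM culture (1.47 ± 0.23, adjusted p = 0.000551). Every tumor array lay above every ADM array in these genes, and vimentin was even to within 0.03 on tumor arrays. Zeb1, a repressor of epithelial genes, had 6.20, 5.64 and 5.73 in tumor cells, against 5.28, 5.14 and 5.22 in ADM culture and did not pass (0.64 ± 0.21, adjusted p = 0.0589). Snai1, another such repressor, went the other way, with 3.93, 4.22 and 3.63 in tumor cells, against 6.19, 5.22 and 5.32 in ADM culture (-1.65 ± 0.26, adjusted p = 0.00071).

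Among the lowered members were Lox, Tnc, Sparc and other genes of the matrix. Lox, which cross-links collagen, had 3.80, 4.05 and 4.14 in tumor cells, against 10.51, 9.78 and 10.66 in ADM culture (-6.32 ± 0.22, adjusted p = 4.58e-10). Tnc, tenascin C, had 3.71, 3.94 and 3.75 in tumor cells, against 10.29, 8.69 and 10.22 in ADM culture (-5.93 ± 0.38, adjusted p = 2e-07). Col1a2, a chain of collagen I, had 3.13, 2.87 and 2.58 in tumor cells, against 10.61, 9.55 and 10.56 in ADM culture, at least 98.3-fold lower. ADM replicate 2 was the lowest ADM array for all 3 of these. It was likewise lowest for the fibroblast receptor Pdgfrb, which had 4.86, 4.25 and 4.28 in tumor cells, against 8.89, 7.76 and 8.78 in ADM culture, and its fibroblast sum was the lowest given above. The part of fibroblast-lineage RNA in these matrix differences was not tested. Fn1, fibronectin, had 10.89, 9.17 and 10.15 in tumor cells and 10.28, 10.10 and 10.79 in ADM culture, overlapping (-0.32 ± 0.35, adjusted p = 0.677).

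Of enzymes that remodel matrix and their inhibitors, 13 of 28 were called lower and 1 (Serpinb6b) higher. Mmp7, matrilysin, an epithelial protease needed for ADM in mice, had 3.75, 4.22 and 3.62 in tumor cells, against 11.50, 11.27 and 11.59 in ADM culture (-7.59 ± 0.21, adjusted p = 1.14e-10). Mmp2, a gelatinase of stromal cells, fell by 5.02 on the log2 scale and the inhibitor Timp1 by 2.16. Of 22 integrin and laminin chains 6 were called lower and 0 higher. Itgb6, an integrin chain induced in injured epithelia, was at least 8.35-fold lower in tumor cells, and Lama3, a laminin chain of epithelial basement membranes, fell by 2.66.

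Of gastric and foregut genes 12 of 32 were called lower in tumor cells and 3 higher, or 1 higher without ADM replicate 3. With 1 array left out the lower count ran from 10 (without ADM replicate 2 or tumor replicate 3) to 13 (without ADM replicate 3 or tumor replicate 1). Gkn2 of this list stayed called without ADM replicate 3 (-3.16) and lost its call when any other array was left out. Muc5ac, a secreted mucin of stomach surface cells, had 3.05, 2.96 and 2.94 in tumor cells, against 10.07, 10.25 and 7.31 in ADM culture, at least 48.1-fold lower. ADM replicate 3 was nearly 3 below the other ADM arrays for this mucin, and still far above background. Tff1, a trefoil peptide secreted with it, had 9.68, 9.71 and 8.70 in tumor cells, against 11.80, 11.69 and 10.67 in ADM culture (-2.02 ± 0.33, adjusted p = 0.000778), lower on every tumor array and still bright there. The protease Ctse fell by 1.95 on the log2 scale. In the other direction, Pdx1, a pancreas and duodenum transcription factor, had 6.55, 6.56 and 6.25 in tumor cells, against 4.37, 4.56 and 4.47 in ADM culture (1.99 ± 0.19, adjusted p = 8.19e-06). Cdx2, an intestinal transcription factor, had 4.83, 4.88 and 4.97 in tumor cells, against 3.92, 3.96 and 3.22 in ADM culture (1.19 ± 0.27, adjusted p = 0.00892), a call lost without ADM replicate 3 (0.95). Vsig1, a gastric junction protein, was also called (1.79 ± 0.47, adjusted p = 0.0191), though the groups overlapped, and lost its call without tumor replicate 1 (adjusted p = 0.0607), tumor replicate 2 (0.0926), ADM replicate 2 (0.0723) or ADM replicate 3 (0.0815). The endoderm factor Hnf4a did not pass (0.13 ± 0.20, adjusted p = 0.794).

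Cell cycle genes were higher in tumor cells. All 26 mitosis genes were called higher, with a median log2 difference of 1.74, and 24 of 31 replication genes, with a median of 1.37 (26 and 27 without tumor replicate 1, and 24 and 19 without tumor replicate 2, tumor replicate 3 or ADM replicate 2). Mki67, the proliferation antigen, had 7.98, 8.64 and 9.27 in tumor cells, against 7.40, 6.47 and 7.28 in ADM culture (1.58 ± 0.31, adjusted p = 0.00354). Cdc20, which starts anaphase, had 7.51, 9.38 and 9.19 in tumor cells, against 6.85, 6.19 and 6.39 in ADM culture (2.22 ± 0.41, adjusted p = 0.00228, and 2.81 without tumor replicate 1). Tumor replicate 1 was the lowest tumor array for both genes, and above every ADM array. Mcm2, a helicase subunit loaded at origins, had 8.18, 8.45 and 8.72 in tumor cells, against 6.81, 6.84 and 6.52 in ADM culture (1.73 ± 0.19, adjusted p = 3.66e-05). Foxm1, which drives the mitosis program, rose by 2.07 ± 0.29, Tk1, thymidine kinase, by 2.32 ± 0.33 and E2f8, a repressor of the E2F family, by 2.34 ± 0.31. The mean log2 signal of the mitosis list was 7.64, 8.80 and 9.09 on tumor arrays 1 to 3, against 7.03, 6.39 and 6.87 on ADM arrays 1 to 3. ADM cultures thus carried mitosis signal well above background as well, lowest in replicate 2.

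**Figure D3:**
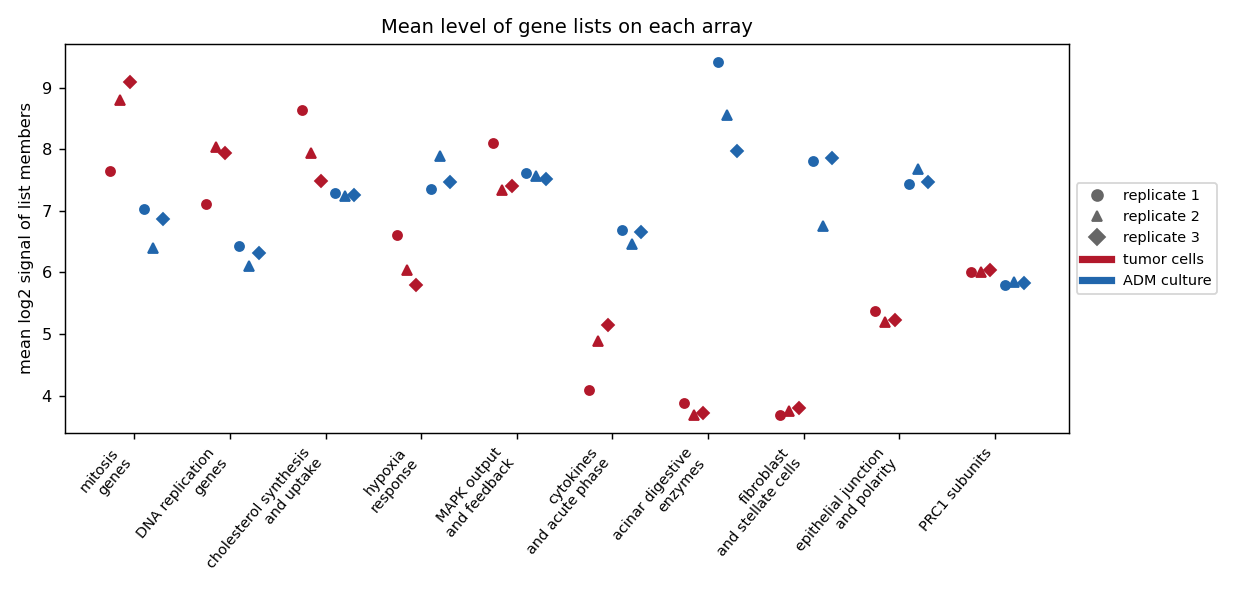
Mean log2 signal of gene lists on each tumor array (red, left) and ADM array (blue, right), over the list members above background in at least 1 group. Tumor replicate 1 lies below the other tumor arrays for mitosis and replication and above them for cholesterol, hypoxia and MAPK genes.

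Of 21 MYC and cyclin genes 1 was called higher (Ccnd2) and 2 lower, and without tumor replicate 1 the counts were 6 and 2. Myc itself had 8.90, 8.96 and 9.18 in tumor cells and 8.66, 8.85 and 8.69 in ADM culture (0.28 ± 0.17, adjusted p = 0.342), and did not pass. Ccnd1, cyclin D1, which was counted with the MAPK output genes and not here, had 10.43, 10.89 and 11.09 in tumor cells, against 8.95, 9.10 and 9.11 in ADM culture (1.75 ± 0.21, adjusted p = 5.45e-05). Its highest ADM array lay more than 1 below its lowest tumor array. Cdk inhibitors of the Cdkn1 and Cdkn2 families differed in direction: Cdkn1b rose by 1.19 ± 0.20, whereas Cdkn1a, the p53 target, had 10.48, 10.07 and 10.30 in tumor cells, against 11.02, 11.25 and 11.12 in ADM culture (-0.85 ± 0.22, adjusted p = 0.0175), under the fold for a call. The call of Cdkn1b was lost without tumor replicate 1 (0.98). Of 24 p53 targets 3 were called lower, among them Trp53inp1 (-2.87 ± 0.38) and Btg2 (-2.47 ± 0.53, and -3.38 without tumor replicate 1), and 1 higher. The share called was 14.29% of the MYC and cyclin list and 16.67% of the p53 targets. Both lists are mostly of expressed genes, and among genes above background in at least 1 group 5.566% were called higher and 8.609% lower.

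Of 24 tumor suppressors and Cdk inhibitors, 5 were called higher and 2 lower, and both that were lower, Mtap and Cdkn2b, flank Cdkn2a on chromosome 4. Without tumor replicate 3 the list had 2 higher, and without ADM replicate 1 it had 4 lower. Mtap, the enzyme that salvages methylthioadenosine, had 3.66, 2.96 and 3.14 in tumor cells, against 7.76, 7.92 and 7.55 in ADM culture, at least 17.3-fold lower (-4.49 ± 0.22, adjusted p = 1.54e-08). Cdkn2b, an inhibitor of cyclin D kinases, had 4.23, 4.30 and 4.29 in tumor cells, against 6.37, 7.08 and 6.83 in ADM culture (-2.49 ± 0.19, adjusted p = 1.06e-06). Cdkn2a, which encodes Ink4a and Arf, had 3.40, 3.61 and 3.78 in tumor cells, against 4.43, 4.35 and 4.91 in ADM culture, at least 1.85-fold lower (-0.97 ± 0.17, adjusted p = 0.00169). Cdkn2a was thus near background on tumor arrays and only about 1 above them in ADM culture, just short of a call, which it passed without tumor replicate 3 (-1.06), ADM replicate 1 (-1.03) or ADM replicate 2 (-1.07). Wincr1, a noncoding RNA on the other side of Mtap, had 2.63, 2.77 and 3.02 in tumor cells, against 5.95, 6.22 and 5.77 in ADM culture, at least 5.13-fold lower (-3.17 ± 0.16, adjusted p = 2.25e-08).

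In the order of the annotation these lie together as Wincr1, Mtap, Cdkn2a and Cdkn2b. None of the other genes measured within 12 genes of Cdkn2a on either side was called. Beyond Wincr1 lay Mir31, with a difference of 0.48 ± 0.40 (adjusted p = 0.541), and the type I interferon genes, and beyond Cdkn2b, Dmrta1 differed by 0.09 ± 0.15, Tusc1 by 0.18 ± 0.18, Caap1 by -0.13 ± 0.24, Plaa by -0.30 ± 0.16 and Ift74 by 0.07 ± 0.15. Several of these flanking genes were at background in both groups, while Plaa had 7.63, 7.97 and 8.09 in tumor cells and 8.16, 8.24 and 8.19 in ADM culture. The arrays measure RNA and not DNA copy number.

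**Figure D4:**
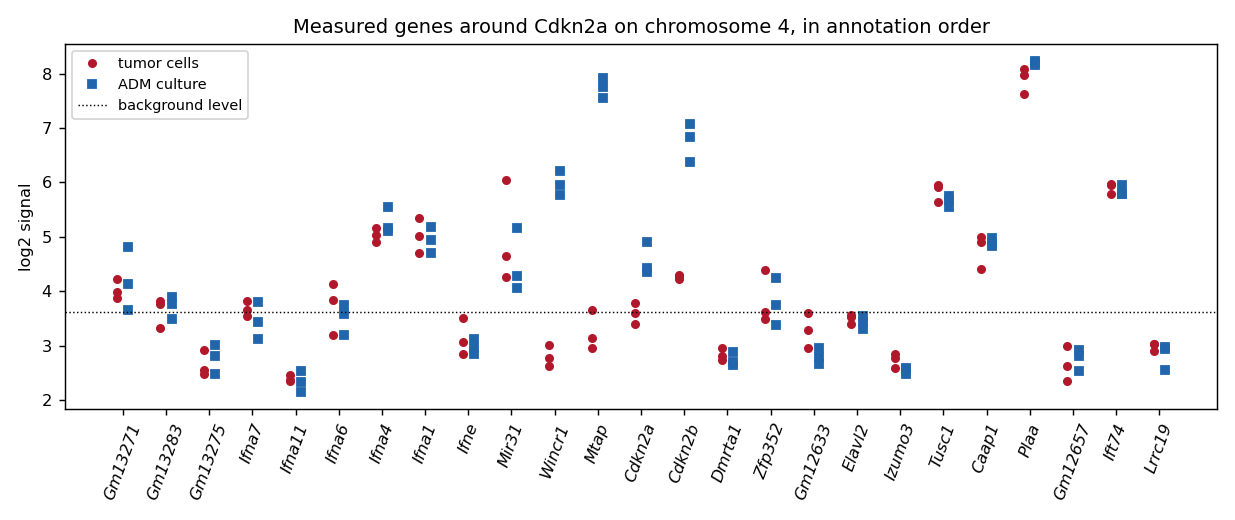
Log2 signal of the measured genes around Cdkn2a in the order of the annotation on chromosome 4, with tumor arrays as red circles (left) and ADM arrays as blue squares (right) and the background level dotted. Wincr1, Mtap, Cdkn2a and Cdkn2b are lower on every tumor array, and the genes on both sides of them were not called.

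The 5 called higher were Rbl1, Brca2, Cdkn1b, Cdkn2c and Cdkn2d. Rbl1, a relative of the retinoblastoma protein that is itself made in cycling cells, rose by 1.40 ± 0.30 (adjusted p = 0.00576). Brca2, a DNA repair gene, had 5.22, 5.39 and 6.29 in tumor cells, against 4.55, 4.48 and 4.47 in ADM culture (1.13 ± 0.27, adjusted p = 0.0101), and lost its call without tumor replicate 3 (0.81). Smad4, the shared mediator of TGF-beta signalling, had 8.21, 7.85 and 8.12 in tumor cells and 7.73, 7.81 and 7.87 in ADM culture (0.26 ± 0.15, adjusted p = 0.342), and was not called. Arid1a, a chromatin remodelling subunit, differed by -0.18 ± 0.15 (adjusted p = 0.541).

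Among polycomb genes the large difference was that of Ezh2. Of 20 subunits of polycomb repressive complex 1, limma called 0 higher and 0 lower (4 higher and 1 lower at an unadjusted p under 0.05), with a median log2 difference of 0.26. Rnf2, its ubiquitin ligase, had 7.59, 7.57 and 7.67 in tumor cells and 7.93, 7.79 and 7.91 in ADM culture (-0.27 ± 0.17, adjusted p = 0.385). Its partner Bmi1 differed by 0.51 ± 0.26 (adjusted p = 0.242), and Phc1 had the largest difference of the complex, 0.66 ± 0.19 (adjusted p = 0.029). In complex 2, 1 of 13 was called higher and 2 lower. Ezh2, its methyltransferase, which is made in cycling cells, had 9.18, 9.56 and 9.62 in tumor cells, against 7.90, 8.16 and 7.81 in ADM culture (1.50 ± 0.23, adjusted p = 0.00063). Every tumor array was more than 1 above the highest ADM array for this gene. The mitosis and replication lists were higher on the same arrays, and their part in this difference was not tested. The accessory subunit Jarid2 had 4.37, 4.36 and 4.44 in tumor cells, against 5.19, 5.63 and 5.45 in ADM culture (-1.03 ± 0.22, adjusted p = 0.0062), and Epop, another, differed by -1.0 ± 0.18 (adjusted p = 0.00185). These calls lay at the fold limit: without ADM replicate 2 Jarid2 was at -0.93 and Epop at -0.85, and without tumor replicate 3 Epop was at -0.86. The core subunits Eed and Suz12 differed by 0.21 ± 0.21 and 0.34 ± 0.19 (adjusted p = 0.64 and 0.301).

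Among other chromatin genes, Dnmt1, the maintenance DNA methyltransferase, stood at 0.97 ± 0.22 (adjusted p = 0.00744), short of the fold for a call with all arrays and past it without tumor replicate 1 (1.15), tumor replicate 2 (1.02) or ADM replicate 1 (1.04). Of 25 histone deacetylases and lysine demethylases 2 were called lower, Kdm5b (-1.80 ± 0.32) and Kdm7a (-1.51 ± 0.37), and 0 higher. That is 8% of the list, beside 8.35% of all genes. All 25 were above background in ADM culture, and among genes above background in at least 1 group 5.566% were called higher and 8.609% lower. Kdm5b, which removes methyl groups of active promoters, had 6.97, 5.51 and 5.52 in tumor cells, against 7.74, 7.95 and 7.72 in ADM culture, with tumor replicate 1 nearest to ADM culture. Kdm7a differed by -2.11 without tumor replicate 1 and lost its call without tumor replicate 2 (adjusted p = 0.072) or tumor replicate 3 (adjusted p = 0.0683).

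Of 17 oncofetal and imprinted genes, a list of genes active mostly in fetal tissue, 6 were called lower and 0 higher. Those called are imprinted genes, which are expressed from 1 parental copy. Peg3, a zinc finger protein made from the paternal copy, had 3.76, 3.50 and 3.29 in tumor cells, against 9.82, 9.38 and 9.54 in ADM culture, at least 60.2-fold lower (-6.06 ± 0.18, adjusted p = 1.14e-10). Zim1, its imprinted neighbour and not counted in the list, was called lower too (-1.09 ± 0.23, at least 1.59-fold). Its call was lost without tumor replicate 2 (-0.95) or ADM replicate 1 (-0.87). Usp29 beside Zim1 was not called (-0.39 ± 0.18, adjusted p = 0.18). Grb10, a growth factor receptor adaptor, had 3.70, 3.45 and 3.97 in tumor cells, against 7.39, 7.34 and 7.18 in ADM culture (-3.60 ± 0.16, adjusted p = 1.01e-08). Igf2r, which clears insulin-like growth factor, fell by 2.60 on the log2 scale. The other list members called were Mest (-1.99), Plagl1 (-1.53, at least 1.40-fold lower) and Ndn (-1.41), and Igf2 had 3.86, 3.02 and 3.24 in tumor cells and 3.75, 3.61 and 3.74 in ADM culture, close to background throughout.

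The EGF receptor, which ADM cultures met with its ligand, was lower in tumor cells. Egfr had 7.87, 8.07 and 8.27 in tumor cells, against 9.11, 9.31 and 9.47 in ADM culture (-1.23 ± 0.22, adjusted p = 0.0015). Its kin Erbb3 had 4.81, 3.81 and 3.74 in tumor cells, against 6.67, 7.27 and 6.79 in ADM culture (-2.79 ± 0.32, adjusted p = 4.84e-05), and Erbb2 differed by 0.33 ± 0.20 (adjusted p = 0.365). Both receptors called were lower on every tumor array than on any ADM array. Tgfa, the gene of the ligand added to ADM cultures, differed by 0.05 ± 0.27 (adjusted p = 0.948), and the ligand Hbegf was higher in tumor cells (1.24 ± 0.25, adjusted p = 0.00408), at 0.97 without tumor replicate 1. Nrg1, a ligand of Erbb3, had 5.69, 7.94 and 8.04 in tumor cells, against 5.86, 5.21 and 5.59 in ADM culture (1.67 ± 0.51, adjusted p = 0.0401), with tumor replicate 1 level with ADM culture. Without that array the difference was 2.44 (adjusted p = 0.000131), and leaving out any of the other 5 arrays ended the call, with adjusted p from 0.0697 to 0.178.

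Downstream of the receptor, 2 of 24 MAPK output and feedback genes were called higher and 1 lower, with a median log2 difference of 0.25 (2 and 3 without tumor replicate 1). The phosphatase Dusp6 differed by 0.54 ± 0.23 (adjusted p = 0.145). Fos, an immediate early gene, had 8.18, 4.39 and 4.49 in tumor cells and 7.15, 7.48 and 7.32 in ADM culture (-1.63 ± 0.73, adjusted p = 0.175). Egr1, another, had 11.02, 7.45 and 7.15 in tumor cells and 9.30, 9.35 and 9.18 in ADM culture (-0.74 ± 0.71, adjusted p = 0.619). Tumor replicate 1 was above every ADM array for both and the other tumor arrays below every ADM array. Without it Fos stood at -2.88 (adjusted p = 5.12e-06) and Egr1 at -1.98 (adjusted p = 1.46e-05). The interleukin Il11 fell by 3.08. Rasa3, a GTPase activating protein for Ras, was counted with the RAS and RAF genes and not here. It rose by 1.80 ± 0.23 (adjusted p = 0.000113). Of 15 RAS and RAF genes 2 were called higher and 0 lower. The share called was 12.5% of the MAPK list and 13.33% of the RAS and RAF list. Among genes above background in at least 1 group, 5.566% were called higher and 8.609% lower.

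YAP and TEAD targets were mixed, 5 of 25 higher and 3 lower (4 higher and 2 lower without tumor replicate 1). Ankrd1, a target that rises with YAP, had 10.44, 10.75 and 11.18 in tumor cells, against 9.15, 9.0 and 9.51 in ADM culture (1.57 ± 0.26, adjusted p = 0.000959). Ccn1 rose by 1.48 ± 0.33, while its relative Ccn2 had 10.58, 10.05 and 10.29 in tumor cells, against 10.96, 11.09 and 11.19 in ADM culture (-0.77 ± 0.27, adjusted p = 0.0799). These related targets thus differed in opposite directions, though Ccn2 did not pass.

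In the TGF-beta and BMP pathway, 8 of 33 genes were called lower and 1 higher (9 and 2 without tumor replicate 1). Tgfbr1, the type I receptor, had 5.28, 5.25 and 5.45 in tumor cells, against 7.60, 7.81 and 7.98 in ADM culture (-2.47 ± 0.16, adjusted p = 2.43e-07), while Tgfbr2 differed by 0.47 ± 0.17 (adjusted p = 0.0976). The BMP target Id3 fell by 2.50 on the log2 scale. Bmp4, a ligand, had 6.81, 5.79 and 4.71 in tumor cells, against 4.04, 4.02 and 3.59 in ADM culture (1.89 ± 0.41, adjusted p = 0.00681), higher on each tumor array and least in replicate 3. In the prostaglandin pathway 5 of 21 were called lower and 0 higher. Ptgs2, cyclooxygenase 2, had 9.07, 9.78 and 9.83 in tumor cells, against 11.28, 11.37 and 11.24 in ADM culture (-1.74 ± 0.22, adjusted p = 0.000116).

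The Wnt pathway held 1 of the largest rises in the comparison, that of Porcn, on the X chromosome. Porcn, which attaches the lipid that Wnt proteins need for secretion, had 10.18, 9.15 and 9.16 in tumor cells, against 5.88, 5.94 and 6.27 in ADM culture (3.47 ± 0.31, adjusted p = 4.4e-06). Its neighbour Ebp, a sterol isomerase, had 8.51, 8.74 and 8.07 in tumor cells, against 6.60, 6.71 and 6.80 in ADM culture (1.74 ± 0.19, adjusted p = 3.11e-05). Ftsj1 on the same stretch differed by 0.82 ± 0.22 and Tbc1d25 by 0.27 ± 0.15, neither called, though Ftsj1 was without tumor replicate 1 (1.08). The rest of the pathway gave 6 of 33 genes lower and no further gene higher with all arrays, and 1 further higher without tumor replicate 1.

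Of 31 chemokines 4 were called higher and 8 lower. Cxcl5, a ligand of the neutrophil receptor Cxcr2, had 9.31, 11.20 and 11.42 in tumor cells, against 6.65, 7.04 and 7.14 in ADM culture (3.70 ± 0.40, adjusted p = 2.52e-05, and 4.37 without tumor replicate 1). Cxcl3, of the same family, had 6.36, 7.32 and 7.67 in tumor cells, against 5.81, 4.34 and 4.33 in ADM culture (2.29 ± 0.40, adjusted p = 0.0015), whereas its relative Cxcl1 had 3.20, 3.09 and 2.93 in tumor cells, against 5.41, 5.76 and 5.44 in ADM culture, at least 3.77-fold lower. Ligands of 1 receptor thus went both ways. Ccl20, which draws Ccr6 cells, had 6.44, 6.30 and 6.38 in tumor cells, against 4.51, 4.35 and 4.12 in ADM culture (2.05 ± 0.14, adjusted p = 3.73e-07). Cxcl12, a chemokine of stromal cells, had 4.04, 3.99 and 4.05 in tumor cells, against 8.40, 9.69 and 8.17 in ADM culture (-4.73 ± 0.30, adjusted p = 1.53e-07).

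Among 29 cytokine and acute phase genes, 2 were called higher and 10 lower, the Reg genes among them. Without tumor replicate 1 the counts were 4 higher and 12 lower. Csf2, the growth factor of granulocytes and macrophages, had 7.18, 6.26 and 7.09 in tumor cells, against 3.74, 3.60 and 3.81 in ADM culture (3.13 ± 0.23, adjusted p = 8.15e-07). All ADM arrays were close to background for it. Il33, an alarmin, had 5.19, 8.19 and 7.89 in tumor cells, against 4.74, 4.20 and 3.98 in ADM culture (2.78 ± 0.56, adjusted p = 0.00394, and 3.73 without tumor replicate 1), with replicate 1 the lowest tumor array. Csf3, the granulocyte factor, had 3.19, 7.84 and 8.29 in tumor cells and 3.64, 3.66 and 3.66 in ADM culture: tumor replicate 1 was at background, the other tumor arrays far above every ADM array, and the difference did not pass (2.79 ± 0.91, adjusted p = 0.0581) unless that array was left out (4.41, adjusted p = 7.17e-09). Ppbp, a chemokine of platelets, likewise had tumor replicate 1 below every ADM array and the other tumor arrays above, with 4.44, 9.58 and 10.85 in tumor cells and 6.56, 6.51 and 5.28 in ADM culture (2.17 ± 1.15, adjusted p = 0.274, and 4.10, adjusted p = 7.61e-05, without tumor replicate 1). Lcn2, a protein that binds iron carriers of bacteria, was called lower (-3.48 ± 0.76, adjusted p = 0.00642), with 3.91, 7.22 and 8.35 in tumor cells, against 9.96, 9.76 and 10.20 in ADM culture, and was -2.19 without tumor replicate 1 and -4.41 without tumor replicate 3. The colony stimulating factor Csf1 fell by 2.97.

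Of hypoxia genes 12 of 22 were called lower in tumor cells and 0 higher, with a median log2 difference of -1.32. Car9, carbonic anhydrase 9, a sensitive target of hypoxia-inducible factor, had 4.02, 4.21 and 3.95 in tumor cells, against 8.61, 9.73 and 8.72 in ADM culture (-4.96 ± 0.33, adjusted p = 2.77e-07). Bnip3, a mitophagy receptor, had 7.68, 5.49 and 5.05 in tumor cells, against 7.96, 9.37 and 8.26 in ADM culture (-2.46 ± 0.53, adjusted p = 0.00623, and -3.26 without tumor replicate 1). ADM replicate 2 was highest for both, and tumor replicate 1 the highest tumor array for Bnip3. Vegfa, the vessel growth factor, fell by 1.18 on the log2 scale (adjusted p = 0.00858), a call lost without tumor replicate 3 (-0.95). Averaged over the list, log2 signal was 6.60, 6.04 and 5.79 on tumor arrays 1 to 3, against 7.36, 7.89 and 7.47 on ADM arrays 1 to 3.

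Glycolysis and glucose transport held genes of both directions, with 2 of 23 genes called higher and 5 lower. Hk2, the inducible hexokinase, had 8.27, 8.02 and 8.65 in tumor cells, against 6.10, 6.94 and 6.05 in ADM culture (1.95 ± 0.25, adjusted p = 0.000134). Slc16a1, a lactate carrier, rose by 1.85 ± 0.22 and Pfkfb3, which sets the pace of phosphofructokinase, fell by 2.00. Gapdh had 12.22, 12.06 and 12.05 in tumor cells and 12.06, 12.15 and 12.02 in ADM culture. The enzymes Pkm and Pgk1 differed by -0.17 ± 0.15 and -0.39 ± 0.17, neither called. Genes of the ATF4 response, of serine and 1-carbon metabolism and of amino acid synthesis and transport were called higher in 7 of 23 cases and lower in 0 (7 higher and 2 lower without tumor replicate 1, and 4 higher without tumor replicate 3). Psat1, of serine synthesis, had 8.40, 8.79 and 8.45 in tumor cells, against 6.97, 6.77 and 6.97 in ADM culture (1.64 ± 0.23, adjusted p = 0.000244). Slc7a5, a carrier of large amino acids, rose by 1.54 ± 0.23 and Mthfd1l, of mitochondrial folate, by 1.64 ± 0.28, while Phgdh, the first enzyme of the serine route, differed by 0.50 ± 0.19 (adjusted p = 0.117). With 1 array left out at a time, Atf4 itself differed by 0.10 to 0.40 and its target Asns by -0.09 to 0.39. Neither was called in any of these fits.

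Cholesterol genes were called higher in 4 of 19 cases with all arrays, in 2 without tumor replicate 1 and in 9 without tumor replicate 3, with none lower in any of these. Their mean log2 signal was 8.64, 7.94 and 7.49 on tumor arrays 1 to 3, against 7.29, 7.24 and 7.26 on ADM arrays 1 to 3, highest on tumor replicate 1. Insig1, the sterol sensor, had 10.06, 8.97 and 8.0 in tumor cells, against 8.06, 7.86 and 7.54 in ADM culture (1.19 ± 0.37, adjusted p = 0.0459), and lost its call when any array but tumor replicate 3 was left out, with adjusted p from 0.0758 to 0.16. Ebp, named above, did not depend on 1 array.

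Of targets of the antioxidant factor NRF2 6 of 22 were called lower and 2 higher. Hmox1, heme oxygenase, had 8.13, 6.13 and 5.99 in tumor cells, against 10.17, 10.26 and 10.37 in ADM culture (-3.52 ± 0.41, adjusted p = 5.58e-05, and -4.21 without tumor replicate 1), with tumor replicate 1 about 2 above the other tumor arrays. Nqo1, a quinone reductase, had 3.74, 4.42 and 3.79 in tumor cells, against 7.04, 6.38 and 5.74 in ADM culture (-2.40 ± 0.33, adjusted p = 0.000221). Aldh3a1, an aldehyde dehydrogenase, went the other way, with 6.51, 8.44 and 7.48 in tumor cells, against 3.71, 3.60 and 3.11 in ADM culture, at least 14.2-fold higher. Gsr, which restores glutathione, rose by 1.34 ± 0.15.

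**Figure D5:**
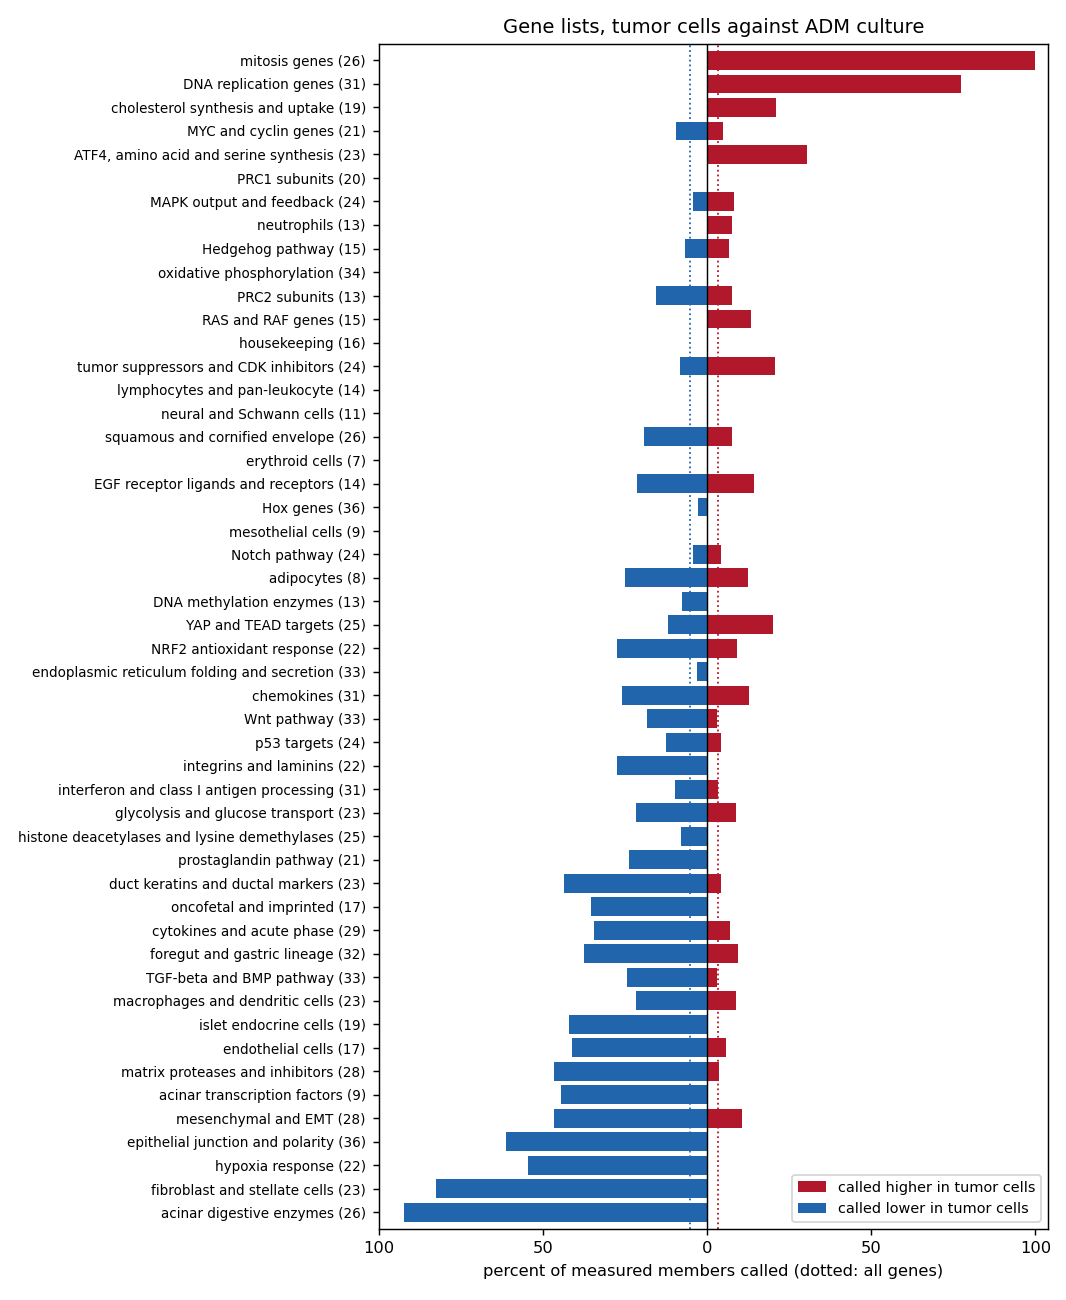
Percent of the measured members of each gene list called higher (red, right) and lower (blue, left) in tumor cells against ADM culture, lists ordered by median log2 difference with the number of measured members in brackets, and dotted lines at the percent of all genes, 3.28% higher and 5.07% lower. The dotted lines include genes at background in both groups. Among genes above background in at least 1 group the shares were 5.566% higher and 8.609% lower. Mitosis genes are all on the red side, the acinar enzyme list and fibroblast markers lie mostly on the blue side, and so do 22 of the 36 genes of the junction and polarity list.

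Several of the genes raised most in tumor cells are known from blood cells or gut rather than pancreas. Il5ra, the receptor chain for interleukin 5 on eosinophils and B cells, had 7.25, 9.08 and 8.66 in tumor cells, against 2.55, 2.55 and 2.41 in ADM culture, at least 26.2-fold higher (5.83 ± 0.36, adjusted p = 1.24e-07). Tigit, an inhibitory receptor of T and natural killer cells, had 8.96, 8.31 and 8.61 in tumor cells, against 3.42, 3.61 and 3.71 in ADM culture, at least 31.5-fold higher (5.05 ± 0.21, adjusted p = 4e-09). Ptpn22, a lymphoid phosphatase, had 6.71, 9.0 and 9.32 in tumor cells, against 3.46, 3.19 and 3.69 in ADM culture, at least 26-fold higher (4.90, and 5.71 without tumor replicate 1). ADM arrays were at or near background for all of them, and tumor replicate 1 was the lowest tumor array for Il5ra and Ptpn22. Mcpt8 and Mcpt2, granule proteases of basophils and mast cells, rose by 4.39 ± 0.18 and 3.48 ± 0.25, and their paralog Mcpt1 was also called (1.69 ± 0.29, at least 1.88-fold). Ptprc, shared by all leukocytes, was at background on every array, as given above. Of the lymphocyte list, Cd3e had 3.45, 3.80 and 3.76 in tumor cells and 3.59, 3.60 and 3.67 in ADM culture. Cross-hybridisation among the Mcpt genes was not tested.

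Other large rises were those of Tns4 and Plac8. Tns4, a tensin of focal adhesions, had 10.84, 10.32 and 10.45 in tumor cells, against 5.21, 4.97 and 5.87 in ADM culture (5.19 ± 0.25, adjusted p = 1.5e-08). Plac8, a protein raised in pancreatic carcinoma, had 10.73, 11.18 and 10.84 in tumor cells, against 7.34, 6.93 and 7.05 in ADM culture (3.81 ± 0.33, adjusted p = 2.85e-06). Both were even across the tumor arrays. Lgals4, galectin-4 of the gut, had 9.81, 10.07 and 9.02 in tumor cells, against 6.43, 5.36 and 5.75 in ADM culture (3.79 ± 0.95, adjusted p = 0.0148). Its wide SE comes from pooling with the embryonic acinar arrays, which had an SD of 2.82 for it, and the call was lost without tumor replicate 2 (adjusted p = 0.0617) or ADM replicate 2 (adjusted p = 0.0574). Spink4, a protease inhibitor of gut goblet cells, had 6.27, 8.41 and 9.12 in tumor cells, against 3.41, 3.31 and 3.30 in ADM culture, at least 19.9-fold higher (4.59, 5.42 without tumor replicate 1 and 4.0 without tumor replicate 3). Gchfr, which restrains tetrahydrobiopterin synthesis, rose by 4.43 ± 0.26, Mgst2, a glutathione transferase, by 4.36 ± 0.24, and Vnn1, a pantetheinase, by 3.31 ± 0.22. Tmem171 and Tnip3 rose by 3.34 and 3.33, and Klhl1 was at least 8.83-fold higher (3.70, and 3.02 without tumor replicate 1). Cck, the gut hormone cholecystokinin, was on the other side, at least 101-fold lower in tumor cells.

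Several genes with the largest standard deviation over the 3 tumor arrays divided replicate 1 from the others. Clca3b, a secreted protein of the chloride channel regulator family, had 2.99, 9.80 and 10.32 in tumor cells, against 2.88, 2.97 and 2.62 in ADM culture. It was at background on tumor replicate 1 and bright on the others. The difference was 4.88 ± 1.35, at least 16.9-fold (adjusted p = 0.0256) with all arrays and 7.24 without tumor replicate 1, and the call was lost when any other array was left out, with adjusted p from 0.0651 to 0.127. Sprr2h, a small proline-rich protein of surface epithelia, had 2.77, 7.05 and 5.78 in tumor cells, against 2.56, 2.53 and 2.42 in ADM culture, again at background on tumor replicate 1. Its difference was 2.70 ± 0.72, at least 2.99-fold (adjusted p = 0.021), 3.91 without tumor replicate 1, and was no longer called when any other array was left out, with adjusted p from 0.0579 to 0.0873. Atf3, a stress factor, had 9.33, 4.92 and 5.17 in tumor cells and 7.75, 8.44 and 7.56 in ADM culture, and Depp1, a target of Foxo factors, had 9.76, 5.06 and 4.71 in tumor cells and 6.48, 7.09 and 5.82 in ADM culture. For these tumor replicate 1 was the highest of the 6 arrays. Without it Atf3 differed by -2.87 (adjusted p = 4.5e-05) and Depp1 by -1.58 (adjusted p = 0.00194), and with it neither passed. The labels give no difference between tumor replicates.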

How the data were processed

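RNA was extracted with a column kit, labelled with biotin and hybridised to Affymetrix mouse arrays, 12 in all, per the labels' protocols. The deposited table holds 1 log2 signal per probe set and array, ready normalized, from 1.56 to 13.67. That the scale is log2 was read from this range, and the authors' background correction and normalization are not given in the sources used here. Of 41345 probe sets, 23521 name 1 gene, 1814 several and 16010 none in the platform annotation. Symbols were checked through Entrez IDs (23328 probe sets matched), which changed 0 of them. Each gene was read by its brightest probe set over the 12 arrays, 1082 genes having more than 1.

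The contrast of tumor cells with ADM culture was fitted with limma 3.58.1 in R 4.3.3 over all 12 arrays in 4 groups, so that embryonic and adult acinar arrays enter the estimate of the spread, the background level and the choice of probe set (8 residual and 5.02 prior degrees of freedom). Adjusted p is by Benjamini-Hochberg over 22180 genes. Background is the 95th percentile of group means of 1394 odorant and vomeronasal receptor genes. A fold against a group whose mean is at or under it takes each array of that group at no less than background. Python 3.11.15 with numpy 2.4.6, pandas 2.3.3 and matplotlib 3.10.9 did the rest, and the fit was tested on simulated data.

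Named genes are the 20 highest and 20 lowest called genes, the first 3 written and up to 6 called in each direction of every list, the polycomb and sex-linked lists, markers of other cells above background, the 15 most variable genes of each group and close paralogs of these. Genes outside that rule, among them Esrp1, Esrp2, Ovol1, Grhl2, Snai1, Krt8, Cel, Fn1, Tgfa, Cdkn1a and the neighbours of Cdkn2a, Porcn and Peg3, were chosen after their values were seen. The comparison, the gene lists and the tests were chosen with earlier results of these data known. Only 3 arrays a group limit the precision.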

Additional observations from a re-analysis of the deposited data

How the results depend on the processing

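With all settings as given, 727 genes were called higher and 1125 lower. The counts were 692 and 986 after quantile normalization, 651 and 1189 after cyclic loess, 639 and 1207 with centring on housekeeping genes, 668 and 1074 with the 6 arrays alone, 747 and 1142 with dim genes left out, 724 and 1103 with the mean of probe sets, 881 and 1245 with array weights, 734 and 1131 with an intensity trend and 713 and 1121 with the replicate number as a block. The labels do not say whether replicate numbers pair the arrays. Same-numbered arrays deviated from their group means with correlations of -0.047, -0.053 and 0.030. With 3 arrays a group, these values cannot show whether arrays were paired. The block ended the calls of Gkn2 and Nrg1 and added Ccl2 among named genes. Leaving out 1 array gave from 605 to 1035 higher, the most without tumor replicate 1, and from 1015 to 1311 lower. In lists with 1 to 3 calls in a direction, the count often moved by 1 or 2 with an array left out. No gene called with all arrays turned its direction under these alternatives among named genes, but 2 that were not called, Depp1 at 0.05 and Rasgrp3 at 0.50, were called lower without tumor replicate 1, at -1.58 and -1.01, and with other arrays left out reached 0.95 and 1.27. Quantile normalization ended 19 calls among named genes, the 6 arrays alone 15, and leaving out tumor replicate 2, tumor replicate 3 or ADM replicate 2 ended 28 each. The number of arrays and the background signal limit the precision, and differences of genes near background, such as Cdkn2a, may be understated.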

Other observations

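Squamous genes, which mark the cornified lining of skin and forestomach, were called higher in 2 of 26 cases (Sprr2h and Il1rn) and lower in 5. Il1rn, the antagonist of the interleukin 1 receptor, had 9.70, 8.61 and 7.23 in tumor cells, against 6.05, 6.01 and 6.22 in ADM culture (2.42 ± 0.43, adjusted p = 0.00168, 1.83 without tumor replicate 1 and 3.06 without tumor replicate 3). Ivl, involucrin, had 7.77, 5.24 and 5.14 in tumor cells, against 10.35, 10.81 and 10.05 in ADM culture (-4.35 ± 0.54, adjusted p = 8.71e-05, and -5.21 without tumor replicate 1). Every tumor array was above every ADM array for Il1rn and below every ADM array for Ivl. Of 31 interferon and class I antigen genes 1 was called higher (0 without tumor replicate 1) and 3 lower, among them Ifih1, a sensor of double-stranded RNA, with 5.34, 4.73 and 4.65 in tumor cells, against 5.90, 5.89 and 5.97 in ADM culture (-1.01 ± 0.20, adjusted p = 0.00365), at the fold limit and short of it without tumor replicate 2 (-0.93), tumor replicate 3 (-0.89) or ADM replicate 3 (-0.99). Of 36 Hox genes 1 was called lower (Hoxa5) and 0 higher, with 4 above background in tumor cells and 10 in ADM culture. Of 15 Hedgehog genes Smo, which carries the signal across the membrane, was called higher (1.16 ± 0.20) and Gli3, a factor that mostly represses targets, lower (-2.29 ± 0.27, at least 4.17-fold). Notch genes gave 1 of 24 higher and 1 lower (0 and 2 without tumor replicate 1). DNA methylation enzymes gave 1 lower of 13, Dnmt3b, at the fold limit and short of it without tumor replicate 1 (-0.91), tumor replicate 3 (-0.91), ADM replicate 1 (-0.94) or ADM replicate 3 (-0.97). The share called was 2.78% of Hox genes, 8.33% of Notch genes and 7.69% of DNA methylation enzymes, none above the 8.35% of all genes. It was 12.9% of interferon and class I antigen genes and 13.33% of Hedgehog genes. Most members of these lists but the Hox genes were above background. Among genes above background in at least 1 group 5.566% were called higher and 8.609% lower.

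Limma called none of 34 oxidative phosphorylation genes (9 higher and 0 lower at an unadjusted p under 0.05), none of 11 neural (0 and 2), 9 mesothelial (1 and 0) and 7 erythroid markers (0 and 0), and none of 16 housekeeping genes (2 and 1). Neutrophil markers gave 1 of 13 higher, Ly6g (2 without tumor replicate 1), and adipocyte markers 1 of 8 higher, Pparg, and 2 lower, with Pparg no longer called without ADM replicate 3 (adjusted p = 0.0635). Fabp4, the fatty acid carrier of fat and endothelium, had 3.41, 2.93 and 2.88 in tumor cells, against 9.82, 9.45 and 9.55 in ADM culture, at least 63.4-fold lower (-6.53 ± 0.19, adjusted p = 1.14e-10).

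By chromosome, among genes above background in at least 1 group, the share called lower was highest on chromosome 1, at 12.62%, with X at 11.53%, chromosome 6 at 11.35% and chromosome 4 at 11.17%. The share called higher was 11.96% on chromosome 6, the highest of any chromosome but Y, which had 5 such genes, and 2.945% on chromosome 4, beside 5.566% higher and 8.609% lower over all such genes. No test was made of these shares. In runs of 25 neighbouring genes, the highest median log2 difference was 0.63, from Akap9 to Cd36 on chromosome 5, where 18 of 25 were positive, and the lowest was -0.92, from Kdm7a to Tmem139 on chromosome 6, where 7 of 25 were positive.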
